A study of Mus musculus with 3 samples.

Results

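In all, 9 rapid-response genes were followed in endothelial cells of mouse calf muscle: the zinc finger transcription factors Egr1, Egr2 and Egr3, the orphan nuclear receptors Nr4a1 and Nr4a2, the kinase Sik1, the pseudokinase Trib1, and Arc and Apold1. They were taken by symbol, and all 9 were found among the 41605 gene rows of the files. The 9 genes were proposed with their levels in these libraries and vessel classes already known, so every level and ratio of them is a description and none is tested.

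Rapid-response genes, also called immediate early genes, are transcribed within minutes of a stimulus from factors already present in the cell, without new protein synthesis. Growth factors, calcium, shear stress and other stimuli reach them through serum response factor with its ternary complex partners and through CREB. Their transcripts are short-lived, and they are also known to be induced while a tissue is dissociated, so their level in sorted cells can depend on the animal and on the handling.

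Cells came from the gastrocnemius of C57BL/6N mice. In the running group, mice were kept singly with a wheel and ran voluntarily for 14 days. The untreated group is labelled as without treatment, and its housing is not given in the sources used here. In the sedentary group, mice were kept singly in cages of the same size with no wheel. The labels give no transgene for any group, and all cells were digested with Dispase II and Collagenase IV and sorted as CD31+, CD45- and SYTOX blue-, that is, as live cells with an endothelial and no leukocyte surface marker. Each group is 1 library of the 10x Chromium 3' chemistry, which counts molecules by unique molecular identifiers (UMIs). The number of mice behind a library is not given in the sources used here, and the library, its preparation and its group cannot be told apart. Intervals below are exact 95% intervals and cover counting error only.

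The running, untreated and sedentary libraries held 3260, 4376 and 4079 barcodes with median UMI counts of 1518, 1582 and 1122. After filtering, 3212, 4326 and 4016 cells were clustered and named from marker genes. The capillary-like class held 2306, 2356 and 2942 cells, the artery-like class 516, 1259 and 707, and the vein-like class 218, 550 and 229. In each of these classes all 7 endothelial markers were detected in every library, while the 3 satellite cell markers were at 0. The untreated library stood apart: its summed red cell markers were at 61.7 CPM (UMIs of a class scaled to a common total) in capillary-like cells, against 658 CPM in the running and 953 CPM in the sedentary library. The largest number of running capillary-like cells fell in 1 cluster (1084 cells), of untreated ones in another (1042 cells) and of sedentary ones in a cluster of few UMIs per cell (1345 cells). Pericyte markers summed to 214 CPM in running, 177 CPM in untreated and 141 CPM in sedentary capillary-like cells. Smooth muscle markers summed to 614 CPM in running, 432 CPM in untreated and 600 CPM in sedentary vein-like cells. They were at 20.1, 13.4 and 24.7 CPM in capillary-like and at 46.8, 18.7 and 25.2 CPM in artery-like cells. The part of red cell RNA, pericyte RNA, smooth muscle RNA and depth in the results below was not tested. Pairs of libraries shared 20 to 32 cell barcodes.

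All 9 are protein-coding genes. On GRCm38 Egr2 at chr10:67535475-67542188 and Egr3 at chr14:70077203-70082614 lie apart. The receptors are Nr4a1 at chr15:101254269-101274795 and Nr4a2 at chr2:57106830-57124003. The others are Sik1 at chr17:31844250-31855804, Trib1 at chr15:59648350-59657099, Arc at chr15:74669083-74672570 and Apold1 at chr6:134981718-134986836. The RefSeq promoter table of GRCm38.p6 held 4 of the 9 genes. The 250 bases before the start are shown for the 3 of them with an annotated start whose window overlaps no untranslated region. These are Egr2 at chr10:67537619-67537868 (plus strand), Nr4a1 at chr15:101266596-101266845 (plus strand) and Nr4a2 at chr2:57124004-57124253 (minus strand). Capitals mark motif matches on either strand, and no 2 matches overlap.
Egr2: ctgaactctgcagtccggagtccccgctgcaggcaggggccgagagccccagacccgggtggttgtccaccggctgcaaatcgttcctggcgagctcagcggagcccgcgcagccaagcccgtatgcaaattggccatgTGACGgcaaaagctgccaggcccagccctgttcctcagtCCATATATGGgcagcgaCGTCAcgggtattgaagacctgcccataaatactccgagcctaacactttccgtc
Nr4a1: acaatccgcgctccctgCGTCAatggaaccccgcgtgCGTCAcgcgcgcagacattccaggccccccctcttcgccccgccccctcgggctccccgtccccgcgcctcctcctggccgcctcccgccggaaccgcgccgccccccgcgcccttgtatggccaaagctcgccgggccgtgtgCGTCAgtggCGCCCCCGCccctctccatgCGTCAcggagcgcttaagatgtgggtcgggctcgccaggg
Nr4a2: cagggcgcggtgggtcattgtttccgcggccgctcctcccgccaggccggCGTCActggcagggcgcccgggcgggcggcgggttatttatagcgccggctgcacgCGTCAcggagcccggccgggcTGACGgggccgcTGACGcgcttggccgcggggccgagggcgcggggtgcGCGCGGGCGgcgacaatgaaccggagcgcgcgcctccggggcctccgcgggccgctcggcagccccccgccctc
Egr2 held a CArG box, the site of serum response factor, 72 to 63 bases before its start, which 1.47% of 32851 promoter windows of this length held. TGACG, the core of the cyclic AMP response element bound by CREB, stood 2 times before Egr2, 4 times before Nr4a1 and 4 times before Nr4a2, and was present in 17.8% of windows. GCGNGGGCG, the site of the EGR proteins, was found once before Nr4a1 and once before Nr4a2, and in 4.70% of windows. Neither TGANTCA, the AP-1 site (6.75% of windows), nor AAAGGTCA, the NR4A monomer site (1.34%), was found in these 3 windows. A match is a description of the letters only.

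In capillary-like cells of running mice all 9 genes were at a higher level than in sedentary mice, and 8 of the 9 counting intervals lay above 0. The lowest of the 9 ratios, that of Nr4a1, was above those of 70.1% of the 11890 genes with at least 20 UMIs. The share of all genes with an interval above 0 was not counted. The 9 genes together took 2612 CPM in running, 1998 CPM in untreated and 1582 CPM in sedentary capillary-like cells, a running-to-sedentary log2 ratio of 0.72 (0.68 to 0.77). Of the 9362 UMIs summed in running cells, 6378 were of Egr1 and 1873 of Apold1. Summed levels here and below thus mostly follow Egr1. At least 1.5-fold higher in running than in sedentary cells were 7 of the 9, against a background of 7.38% of the 11890 genes with at least 20 UMIs, and none was 1.5-fold lower (6.08% of all genes). When cells were thinned to 1000 UMIs each, 4 of the 9 were past 1.5-fold, namely Egr1, Egr3, Arc and Trib1, against 9.68% of the 10347 genes with at least 20 UMIs left. Against the untreated library, 6 of the 9 were at least 1.5-fold higher (16.6% of all genes) and none was 1.5-fold lower (9.43%). Relative to both other libraries at once, running was at least 1.5-fold higher for 5 genes, Egr2, Egr3, Arc, Trib1 and Apold1 (3.1% of all genes). In artery-like cells this held for 1 gene, Trib1 (3.77% of all genes), and in vein-like cells for 3, Egr2, Egr3 and Trib1 (4.23%). Both ratios share the running library. For capillary-like cells the all-gene median was 0.11 on the log2 scale for running to untreated and 0.01 after trimmed-mean (TMM) scaling, so ratios to the untreated library are read against that shift.

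**Figure D1:**
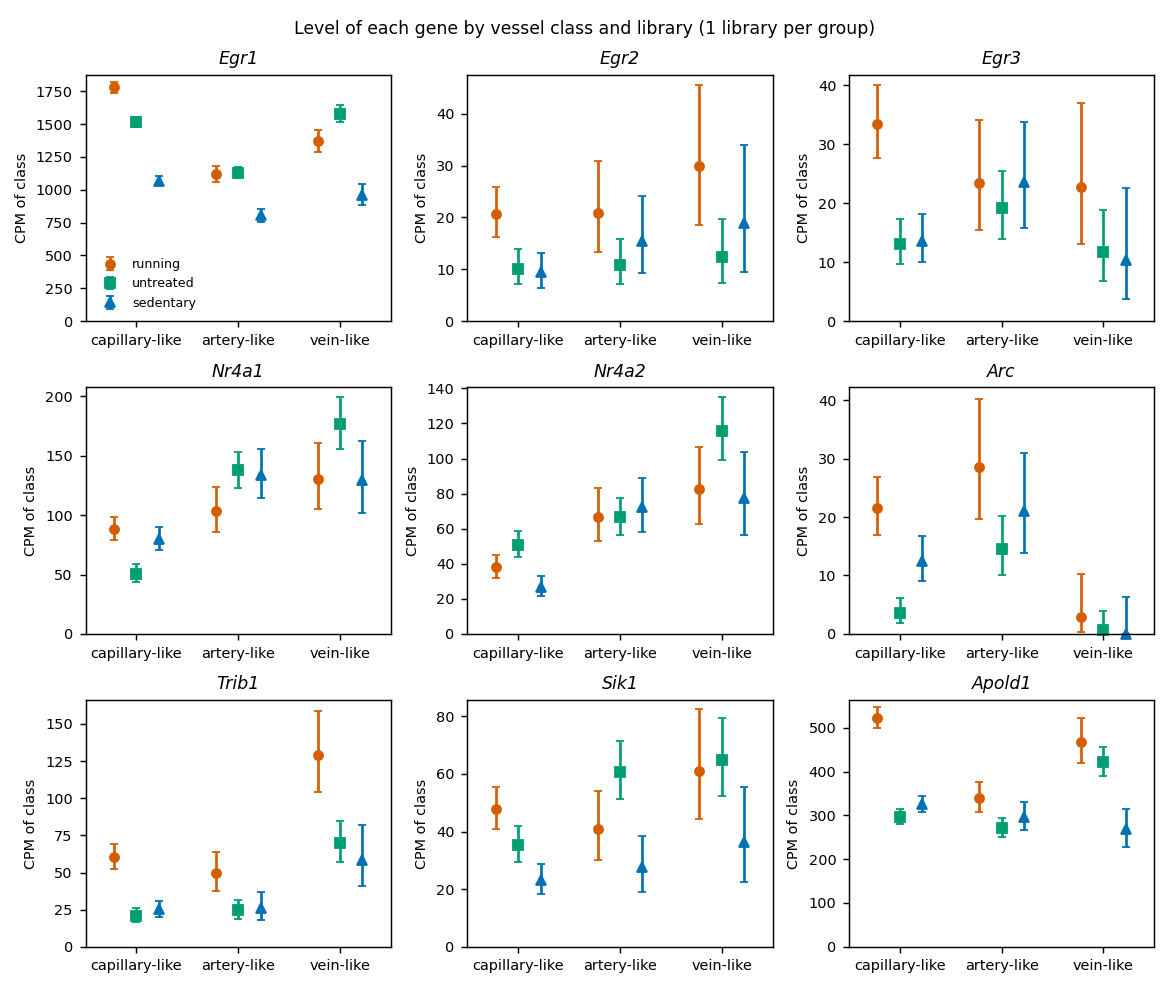
Level of each of the 9 genes in CPM (linear axis from 0) in capillary-like, artery-like and vein-like cells of the running, untreated and sedentary libraries. Points are class sums and bars exact 95% Poisson intervals; in capillary-like cells the running point is highest for every gene but Nr4a2, and Arc is near 0 in vein-like cells.

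The EGR factors bind GC-rich sites and turn on a second wave of genes. Egr1 lies at chr18:34859823-34864984. Egr1, the most studied of them in stressed and injured vessels, had 6378 UMIs in running, 5551 in untreated and 3750 in sedentary capillary-like cells, or 1779, 1516 and 1066 CPM. The running library was highest and the sedentary library lowest, with no overlap of the 3 intervals. The log2 ratio was 0.74 (0.68 to 0.80) for running to sedentary and 0.23 (0.18 to 0.28) for running to untreated. Egr2, known best from myelinating glia and lymphocytes, had 74, 37 and 33 UMIs, or 20.6 CPM in running, 10.1 in untreated and 9.38 in sedentary cells. Its level stood out in the running library alone, with log2 ratios of 1.13 (0.53 to 1.78) to sedentary and 1.02 (0.44 to 1.64) to untreated. Thinning lowered the ratio to sedentary to 0.37 (-0.54 to 1.33), on 26 running and 18 sedentary UMIs. Egr3, which acts downstream of vascular endothelial growth factor in endothelial cells, had 120, 48 and 48 UMIs, or 33.5 CPM in running, 13.1 in untreated and 13.6 in sedentary cells. The untreated and sedentary intervals of Egr3 overlapped, and running cells a higher one, at log2 ratios of 1.29 (0.80 to 1.81) to sedentary and 1.34 (0.86 to 1.87) to untreated.

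The NR4A receptors are active without a ligand and are set by their own transcription. Nr4a1 had 317 UMIs in running, 186 in untreated and 281 in sedentary capillary-like cells, or 88.4, 50.8 and 79.9 CPM. Running and sedentary cells overlapped, at a log2 ratio of 0.15 (-0.09 to 0.38), and the untreated library was the low one, with 0.80 (0.53 to 1.07) for running to untreated. Over all kept cells, with no classes, that ratio was -0.042 (-0.19 to 0.10). Nr4a2 had 136, 186 and 95 UMIs, or 37.9 CPM in running, 50.8 in untreated and 27.01 in sedentary cells. Here the untreated library was the highest, so that running to untreated was -0.42 (-0.75 to -0.09) and running to sedentary 0.49 (0.10 to 0.88). Nr4a2 was the only one of the 9 genes with a running-to-untreated ratio under 0 in this class. The third receptor, Nr4a3, was sparse, at 29 UMIs in running, 4 in untreated and 8 in sedentary capillary-like cells, and its running-to-sedentary log2 ratio was 1.77 (0.67 to 3.17).

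Sik1, a salt-inducible kinase that restrains CREB coactivators, had 171 UMIs in running, 129 in untreated and 81 in sedentary capillary-like cells, or 47.7, 35.2 and 23.0 CPM. The untreated level lay between the other two, and the log2 ratios were 1.05 (0.66 to 1.45) to sedentary and 0.44 (0.10 to 0.78) to untreated. Trib1, a Tribbles pseudokinase that steers proteins to degradation, had 216, 77 and 89 UMIs, or 60.3 CPM in running, 21.0 in untreated and 25.3 in sedentary cells. Running stood clear of both, which overlapped each other, at 1.247 (0.89 to 1.62) to sedentary and 1.51 (1.14 to 1.91) to untreated. Its running-to-sedentary ratio was 1.11 to 1.39 over 14 settings.

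Arc, a capsid-forming protein known from neuronal synapses, had 77 UMIs in running, 13 in untreated and 44 in sedentary capillary-like cells, or 21.5, 3.55 and 12.5 CPM. The untreated library was lower than both in this class. The log2 ratios were 2.55 (1.74 to 3.57) for running to untreated and -1.78 (-2.83 to -0.90) for untreated to sedentary. Running to sedentary was 0.77 (0.23 to 1.35). Over all kept cells, with no classes, these ratios were 1.17, -0.79 and 0.38 (-0.02 to 0.78). The intervals of 1.17 and -0.79 were clear of 0. In the 5 capillary-like clusters built without rapid-response genes, described below, no Arc interval was clear of 0 in any comparison. The running-to-untreated ratio of Arc ran from -0.79 to 2.09 there, above 0 in 4 clusters. Apold1, an endothelial early-response protein described in hypoxia and injury, had 1873, 1087 and 1144 UMIs, or 523 CPM in running, 297 in untreated and 325 in sedentary cells. Running was high and the others close together, at 0.68 (0.58 to 0.79) to sedentary and 0.82 (0.71 to 0.92) to untreated. Apold1 is a leading gene of the cluster that held the largest number of running capillary-like cells, so its place there is part of how that cluster was formed.

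In artery-like cells the summed running-to-sedentary log2 ratio was 0.33 (0.24 to 0.42). The 9 genes together took 1789 CPM in running, 1734 in untreated and 1421 in sedentary artery-like cells, and 1 of the 9, Trib1, was at least 1.5-fold higher in running than in sedentary cells (9.78% of 10322 genes), with none 1.5-fold lower (9.34%). Trib1 had 57 UMIs in running, 59 in untreated and 32 in sedentary cells, or 49.4, 24.5 and 25.99 CPM, a running-to-sedentary ratio of 0.92 (0.28 to 1.599). As in capillary-like cells, running was the high library and the other two overlapped. On thinned cells this call was lost, at 0.55 (-0.46 to 1.61) on 20 running and 16 sedentary UMIs. Past 1.5-fold there were Egr2 and Sik1 instead (13.2% of genes), with intervals that included 0. Nr4a1 was lower in running artery-like cells, at 103 CPM in running, 138 in untreated and 134 in sedentary cells, a ratio to sedentary of -0.38 (-0.73 to -0.03). Egr1 was at 1116, 1129 and 804 CPM, with a running-to-untreated ratio of -0.02 (-0.11 to 0.08) and both above sedentary. Against the untreated library 3 genes, Egr2, Arc and Trib1, were at least 1.5-fold higher (14.3% of genes) and none 1.5-fold lower (11.8%).

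In vein-like cells 5 of the 8 genes with at least 20 UMIs, Egr2, Egr3, Trib1, Sik1 and Apold1, were at least 1.5-fold higher in running than in sedentary cells (12.7% of 9135 genes), with none 1.5-fold lower (12.2%), but 3 of 9 counting intervals lay above 0, those of Egr1, Trib1 and Apold1. The count was 3 with at least 500 genes per cell (14.8% of all genes), with at most 5% mitochondrial UMIs (13.0%) or with thinning (15.7%), and 2 at a Leiden resolution of 1.5 (16.5%). It was 0 when each library was clustered alone (16.8%), where the summed ratio was -0.42 in place of 0.55 and Egr1 was at -0.43 (-0.56 to -0.29). Trib1 had 91 UMIs in running, 101 in untreated and 34 in sedentary vein-like cells, or 129, 69.7 and 58.6 CPM, at 1.13 (0.56 to 1.76) to sedentary and 0.89 (0.47 to 1.32) to untreated. It was again the running library that stood high. Apold1 had 329, 611 and 156 UMIs, or 468 CPM in running, 422 in untreated and 269 in sedentary cells. In veins, unlike capillaries, it was the sedentary library that stood low for Apold1, at 0.80 (0.52 to 1.08) for running to sedentary and 0.15 (-0.05 to 0.35) for running to untreated. Against the untreated library 3 genes, Egr2, Egr3 and Trib1, were at least 1.5-fold higher (16.4% of genes) and none 1.5-fold lower (14.4%).

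**Figure D2:**
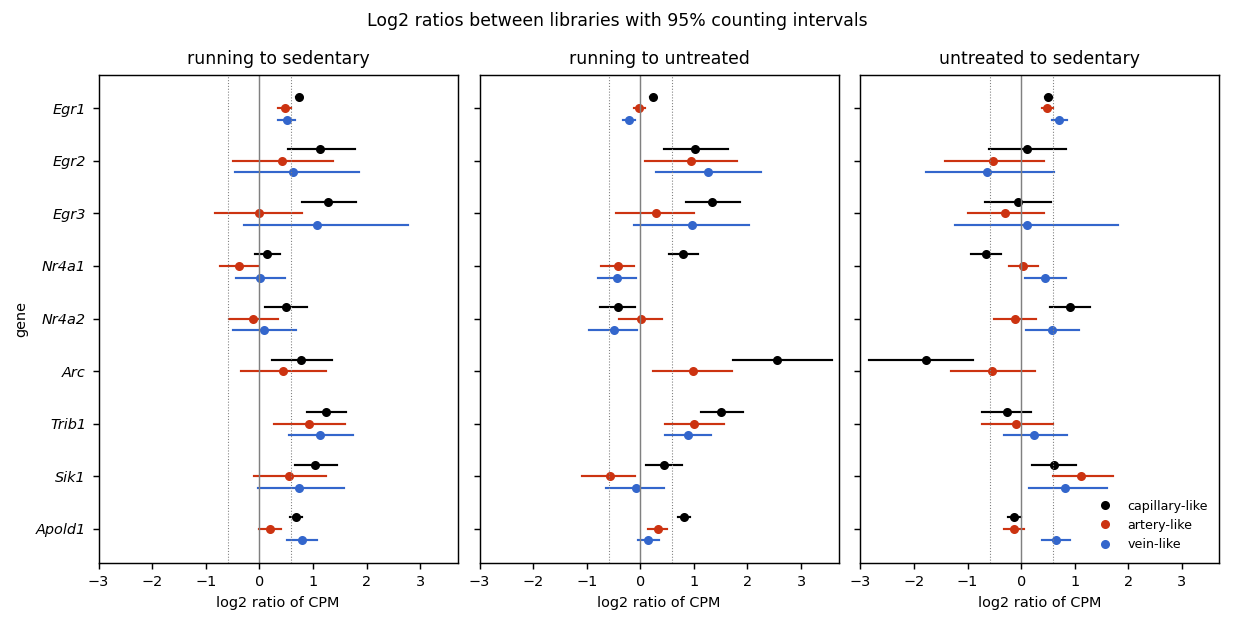
Log2 ratios of CPM between libraries for each gene in capillary-like, artery-like and vein-like cells, with 95% counting intervals; dotted lines mark 1.5-fold, and genes under 20 UMIs in a class are left out. Trib1 lies right of 0 in all 3 classes in both running comparisons, while Nr4a1 lies on different sides of 0 in capillary-like and artery-like cells.

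The untreated and sedentary libraries also differed from each other in these genes. In capillary-like cells 2 of the 9 were at least 1.5-fold higher in untreated than in sedentary cells, Nr4a2 at 0.91 (0.55 to 1.28) and Sik1 at 0.61 (0.20 to 1.03), against 9.72% of all genes, and 2 were at least 1.5-fold lower, Arc and Nr4a1 at -0.65 (-0.93 to -0.38), against 16.8%. In artery-like cells Sik1 alone was higher, at 1.12 (0.59 to 1.72), with 60.7 CPM in untreated and 27.6 CPM in sedentary cells (12.1% of genes), and none was 1.5-fold lower (13.6%). In vein-like cells Egr1, Sik1 and Apold1 were at least 1.5-fold higher (16.1% of genes) and Egr2 lower (18.1%). The Egr2 ratio was -0.63 (-1.77 to 0.62), on 18 untreated and 11 sedentary UMIs, so its interval included 0. The summed level of the 9 genes was 0.34 (0.29 to 0.39) higher on the log2 scale in untreated than in sedentary capillary-like cells, which is close to the 0.39 (0.34 to 0.43) of running to untreated. Without the cluster of few UMIs per cell the first of these was 0.10 (0.05 to 0.15). With 1 library each, the part of housing and of library preparation in these differences cannot be told apart.

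Several genes had a place along the vessel tree that held in all 3 libraries. With the 3 libraries clustered together, Arc was nearly absent from veins. It had 2, 1 and 0 UMIs in vein-like cells of the running, untreated and sedentary libraries. In artery-like cells it had 33, 35 and 26 UMIs and reached 28.6, 14.6 and 21.1 CPM. The 0 UMIs of sedentary vein-like cells allow up to 5.17 CPM. The vein-to-artery interval for Arc lay below 0 in every library, although vein-like cells had the most UMIs per cell. This near absence depended on the clustering. With each library clustered alone, the vein-like running-to-sedentary ratio of Arc was -4.03 (-7.46 to -2.27), so sedentary vein-like cells then held Arc. Among the 3 classes Trib1 was highest in veins, at a vein-to-capillary log2 ratio of 1.11 (0.73 to 1.46) in running, 1.73 (1.29 to 2.18) in untreated and 1.22 (0.60 to 1.797) in sedentary cells, and its artery-to-capillary intervals all included 0. Nr4a2 was higher in veins and arteries than in capillaries in each library, with vein-to-capillary ratios of 1.13 in running, 1.19 in untreated and 1.53 in sedentary cells, and artery-to-capillary ratios of 0.82, 0.39 and 1.42. Nr4a1 was also above capillaries in veins, at 0.57, 1.80 and 0.70. Of the capillary-like, artery-like and vein-like classes, the artery-like one had the lowest Egr1 in all 3 libraries, at an artery-to-capillary ratio of -0.67 in running, -0.43 in untreated and -0.41 in sedentary cells. That order was lost in the sedentary library when rapid-response genes were kept out of the clustering (0.02, -0.08 to 0.13), whereas those of Arc between veins and arteries, Trib1 and Nr4a2 held.

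Some smaller endothelial groups stood out for these genes. A cluster led by Penk, with 32 running, 58 untreated and 41 sedentary cells, had the 9 genes at 4698, 4352 and 4324 CPM, and the 3 intervals overlapped. In it Arc reached 112, 151 and 217 CPM and Nr4a1 525, 425 and 362 CPM, levels above those in capillary-like, artery-like and vein-like cells of the same library. The cluster was singled out after its values were seen. In lymphatic-like cells Trib1 had 28 UMIs in 44 running cells, 10 in 27 untreated cells and 0 in 10 sedentary cells. At 210 CPM in running and 126 CPM in untreated cells its level was above the vein-like 129 and 69.7 CPM. No lymphatic-to-vein ratio was taken, and the lymphatic UMIs are few. The lymphatic-to-capillary log2 ratios were 1.82 (1.18 to 2.37) and 2.64 (1.46 to 3.54). Nr4a2 had 0, 0 and 1 UMIs there, and the sedentary lymphatic-like sum of 20718 UMIs is too shallow to place either gene. A small cluster led by Apln held 15 running, 6 untreated and 5 sedentary cells. Its Trib1 was at 334, 160 and 79.2 CPM, on only 12, 3 and 1 UMIs.

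To see whether the capillary difference held among like cells, cells were clustered again without the 9 genes and 30 other rapid-response genes among the variable genes. In each of the 5 capillary-like clusters the summed level was higher in running than in sedentary cells, at log2 ratios of 0.32 to 0.86, and higher in running than in untreated cells, at 0.21 to 1.2001, with every interval above 0. The cluster lowest in running cells held 1081 CPM in running, 470 in untreated and 596 in sedentary cells, and the one highest in running cells 4604, 2393 and 3380 CPM. Between these clusters, picked as the lowest and highest of 5, the fold difference in each library was larger than that between libraries within either. Egr1, Egr2, Egr3, Trib1 and Apold1 each had a running-to-sedentary ratio above 0 in all 5 clusters, Nr4a2 and Sik1 in 4, Arc in 3 and Nr4a1 in 2. For single genes fewer intervals were clear of 0. The interval lay above 0 in all 5 clusters for Egr1, in 4 for Trib1, and in 3 each for Apold1 and Sik1. It did so in 2 for Egr3 and in 0 for Egr2, Nr4a1, Nr4a2 and Arc. Untreated and sedentary cells had no common order, with 3 of 5 summed ratios above 0. Apold1 and Arc were still among the leading genes of 1 of these clusters, in which 72 of the cells were untreated, against 839 running and 618 sedentary ones.

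**Figure D3:**
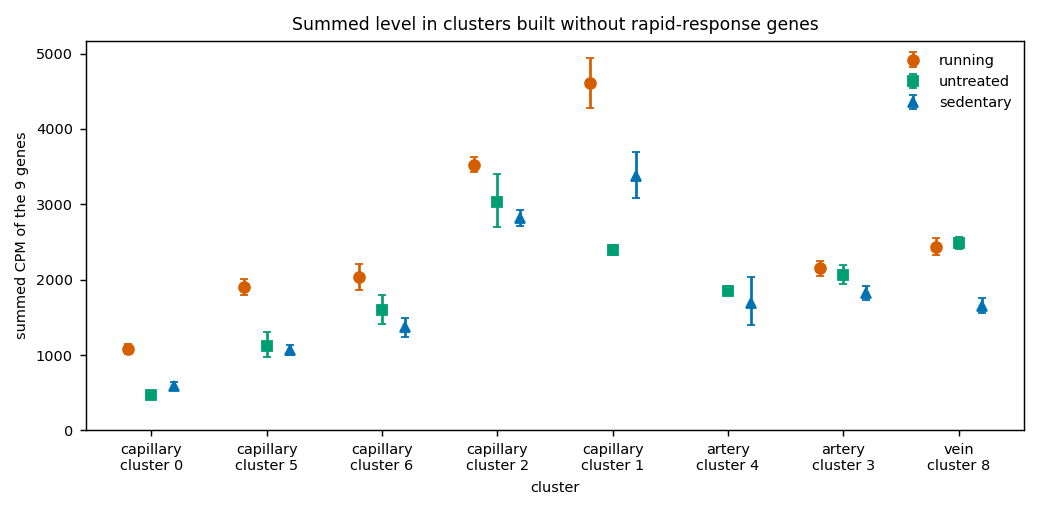
Summed CPM of the 9 genes in each vessel cluster built without rapid-response genes, by library, with exact 95% Poisson intervals. The running point lies above the sedentary point in all 5 capillary clusters; artery cluster 4 shows no running point because it held fewer than 50 running cells.

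The difference was also seen in how many cells held a transcript. Each cell was thinned to 1000 UMIs, which kept 1551 of 2306 running, 1836 of 2356 untreated and 1399 of 2942 sedentary capillary-like cells. Of these, 77.4% of running, 68.2% of untreated and 63.3% of sedentary cells had a UMI of at least 1 of the 9 genes, a running-minus-sedentary difference of 14.1 points (10.8 to 17.4). Without thinning the shares were 79.6%, 70.2% and 55.9%, at median depths of 1341.5, 1431 and 946 UMIs. Egr1 was seen in 68.3%, 61.1% and 54.5% of thinned cells, Apold1 in 34.6%, 21.2% and 23.4%, and Trib1 in 5.29%, 1.96% and 2.29%. For Nr4a1 the running and sedentary shares were 7.29% and 7.72%, and the untreated share was 4.68%. Arc was seen in 2.00% of running, 0.218% of untreated and 1.29% of sedentary cells.

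Barcodes rich in muscle fibre transcripts served as a background for free RNA. Among 96 such barcodes, of a median 682.5 UMIs, Egr1 was seen in 14 (14.6%), Apold1 in 5 (5.21%), and Nr4a1 and Nr4a2 in 1 each. The other 5 genes were seen in 0 of 96, which allows a share of up to 3.13%. Muscle fibres can express Egr1 themselves. Over the 7604 capillary-like cells, of a median 1258 UMIs, the shares were 60.5% for Egr1 and 28.0% for Apold1, above this background. Those of Egr2 (1.74%), Egr3 (2.67%) and Arc (1.38%) lay under the limit that 0 of 96 allows. That of Nr4a2 (4.34%) lay within the interval of its 1 in 96 (0.03% to 5.67%). In capillary-like cells these 4 thus cannot be set apart from free RNA by this background at this depth. Other classes were not set against it.

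Egr1 and Apold1, the 2 genes seen in the most cells, were seen together more often than the product of their shares gives. In thinned capillary-like cells they met in 439 running cells against 367 from the product of shares, in 302 against 238 untreated cells and in 251 against 179 sedentary cells. At least 3 of the 9 genes were seen in 11.5% of running, 5.17% of untreated and 7.08% of sedentary cells, and none of them in 22.6%, 31.8% and 36.7%. The running library thus had both fewer cells without any of these transcripts and more cells with several.

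**Figure D4:**
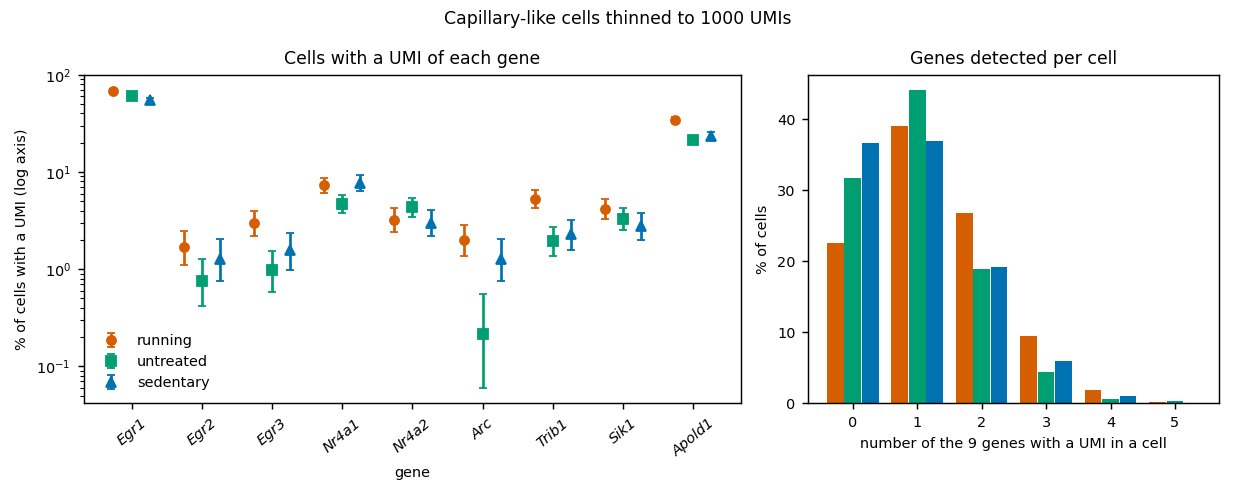
Capillary-like cells thinned to 1000 UMIs: left, the percentage of cells with a UMI of each gene (log axis, exact 95% Clopper-Pearson intervals); right, the percentage of cells by the number of the 9 genes seen, up to 5. Running cells lead for Egr1, Apold1, Trib1 and Egr3, and 22.6% of them held none of the 9 genes, against 31.8% of untreated and 36.7% of sedentary cells.

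The wider pathway was read from lists of related genes in capillary-like cells. Of 28 measured of 30 other rapid-response genes, 10 were at least 1.5-fold higher in running than in sedentary cells and 0 lower (7.38% and 6.08% of all genes), with a median log2 ratio of 0.48. Among them were Atf3, a stress-induced factor, at 358 CPM in running and 202 CPM in sedentary cells (0.83, 0.69 to 0.96), and the AP-1 subunit Fosb at 701 and 405 CPM (0.79, 0.70 to 0.89). Against the untreated library the same list had 7 higher and 5 lower (16.6% and 9.43% of all genes) and a median of 0.01. Of the upstream factors, 0 of 6 SRF and ternary complex genes and 0 of 6 CREB genes passed 1.5-fold in either direction for running to sedentary. Their medians were 0.12 and -0.14. Against the untreated library 1 of 6 SRF and ternary complex genes was higher and 0 lower, and 0 of 6 CREB genes were higher and 2 lower. The medians there were -0.06 and -0.24. Srf itself had 189 UMIs in running and 167 in sedentary cells (0.15, -0.16 to 0.46).

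Genes that answer to or restrain the family were read against the same shares of all genes, 7.38% higher and 6.08% lower. None of the 2 measured EGR partners passed 1.5-fold, and Nab2, a corepressor that EGR1 itself induces, was at 35.4 CPM in running and 45.5 CPM in sedentary capillary-like cells (-0.36, -0.71 to -0.02). Of 3 measured EGR targets none passed it, with Pdgfb at 195 CPM in running and 248 CPM in sedentary cells (-0.35, -0.50 to -0.21), and F3 had no UMI in either. Pdgfb, a growth factor that recruits pericytes, and Nab2, which is in both lists, thus lay on the other side of 0 from Egr1 for running to sedentary. Against the untreated library the 3 measured EGR targets had a median of 0.06, with 0 higher and 1 lower (16.6% and 9.43% of all genes). Of 7 measured MAPK feedback genes, 2 were higher, the phosphatase Dusp5 at 22.6 and 12.5 CPM (0.85, 0.31 to 1.42) and the Sprouty inhibitor Spry4 at 38.8 and 21.0 CPM (0.88, 0.47 to 1.31). None of the 4 SIK and Tribbles relatives passed 1.5-fold, and Trib2 was at 82.6 CPM in running and 102 CPM in sedentary cells (-0.31, -0.53 to -0.08).

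**Figure D5:**
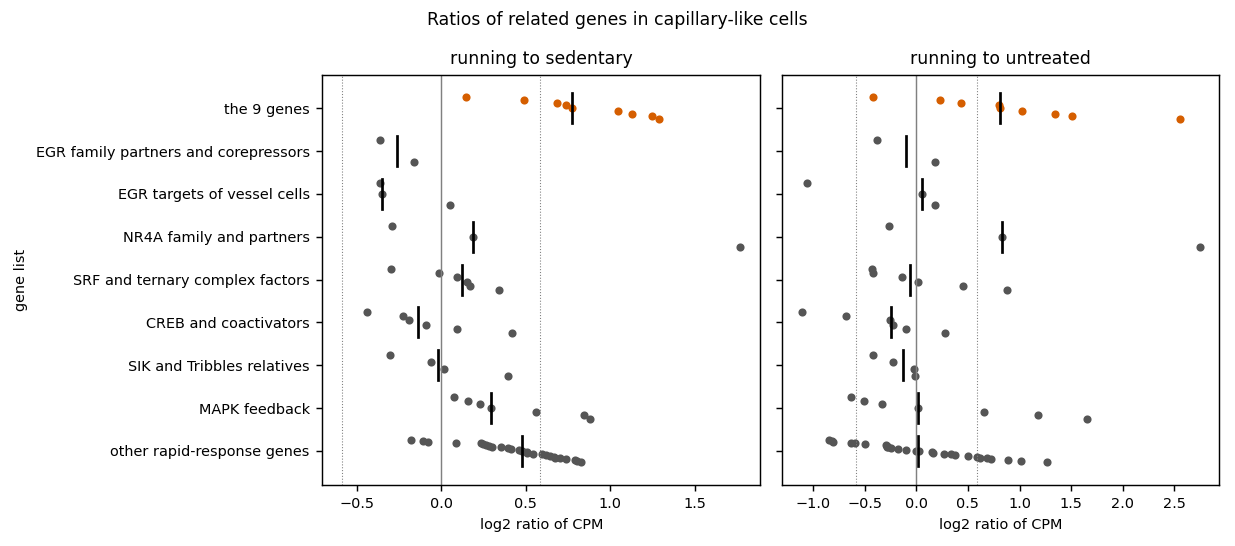
Log2 ratios of CPM in capillary-like cells for the 9 genes and for measured genes of each related list, running to sedentary on the left and running to untreated on the right; black lines are medians and dotted lines mark 1.5-fold. The other rapid-response genes have a median of 0.48 on the left and 0.01 on the right.

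Across 28 sums of a cluster in a library, each of at least 50 cells, the genes with the most similar pattern were sought among 8363 genes. For Egr1 the highest Pearson correlations of log level were with Junb (0.96) and Fosb (0.96), and for Apold1 with Fosb (0.97) and Junb (0.96). Egr3 was most like Hbegf (0.93), which encodes a membrane-bound growth factor. Nr4a2 was most like Csrnp1 (0.91), Sik1 like Fos (0.89), Nr4a1 like Ppp1r15a (0.88) and Egr2 like Csrnp1 (0.88). Arc and Trib1 had looser partners, Gm12216 (0.78) and Adamts1 (0.77). The 28 sums share libraries, depth and the clustering, and these correlations carry no test.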

How the data were processed

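Single-cell RNA of sorted gastrocnemius endothelial cells was measured in 3 libraries, 1 per group. The authors deposited matrices of UMI counts per gene and barcode; per the submitters' processing notes these come from Cell Ranger 2.0.2 and GRCm38.p5, and neither the gene annotation nor the cell calling is given in the sources used here. Cells with at least 300 genes and at most 10% mitochondrial UMIs were kept. Scrublet marked 0 doublets in every library, which is no working filter, so leaving out the highest 5% of scores was an alternative. With scanpy 1.11.5, counts were scaled to 10000 per cell and clustered by Leiden at a resolution of 1.0 on 15 neighbours in 30 components of 2000 variable genes, which gave 17 clusters, named from marker scores (at least 0.3 for a vessel class). UMIs were summed by class and library and given as CPM of the class. A prior of 0.5 UMIs entered each log2 ratio, with exact Poisson-ratio intervals. The procedure was run on simulated Poisson counts, which hold no spread between mice, libraries or cells. That run therefore checks the calculation only. With 1 library per group there is no test, and intervals, shares (Clopper-Pearson) and limits of 3 counts for a value of 0 cover counting error only. A gene counted as measured with 20 UMIs over the 3 libraries in a class.

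The 9 genes, the related lists, the markers and the naming thresholds were chosen with earlier results of these data known. Any of the 9 genes and of the related lists could be named, and for likeness the first 3 genes were taken by Pearson correlation of log levels among genes of at least 200 UMIs. TMM factors came from edgeR 4.0.16. Fewer cells of a kind with RNA of a gene and less RNA per cell were looked at separately through thinned cells. Other settings are in the closing part.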

Additional observations from a re-analysis of the deposited data

Results flagged for a closer look

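For 5 gene and library pairs the log2 ratio had opposite signs in different vessel classes, with each counting interval clear of 0. Nr4a1 was 0.80 for running to untreated in capillary-like cells, -0.41 in artery-like and -0.43 in vein-like cells. For untreated to sedentary, Nr4a1 was 0.44 in vein-like and -0.65 in capillary-like cells. Sik1 was 0.44 for running to untreated in capillary-like and -0.56 in artery-like cells. Egr1 was 0.23 for running to untreated in capillary-like and -0.20 in vein-like cells. Apold1 was 0.65 for untreated to sedentary in vein-like and -0.13 in capillary-like cells. All 5 involve the untreated library. On cells thinned to 1000 UMIs, both intervals stayed clear of 0 on opposite sides for Apold1, at 0.94 in vein-like and -0.38 in capillary-like cells. They did so too for Nr4a1 running to untreated between capillary-like (0.78) and artery-like cells (-0.65), but not in vein-like cells (-0.34, -1.07 to 0.30). The opposition was lost for the others: vein-like Nr4a1 untreated to sedentary had an interval of -0.59 to 0.64, and vein-like Egr1 running to untreated was -0.11 (-0.32 to 0.09). Sik1 running to untreated was 0.31 (-0.21 to 0.83) in capillary-like and -0.54 (-1.39 to 0.19) in artery-like cells. With 1 library per group the difference between classes was not tested in any of them.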

How the results depend on the processing

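No paired analysis was possible because each group holds 1 library. Of 567 alternative values of single genes, 45 had the other sign than the reported value: 6 of ratios reported past 1.5-fold and 39 of smaller ones. In 5 of the 45 the interval under the alternative was clear of 0. In capillary-like cells 116 of 117 running-to-sedentary values were above 0, the exception being Nr4a1 at -0.08.

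The summed capillary running-to-sedentary ratio of 0.72 was 0.82 without the highest 5% of doublet scores, 0.78 at resolution 1.5, 0.61 without the low-UMI cluster, 0.63 over all kept cells, 0.60 thinned and 0.82 as a mean of per-cell CPM. The running-to-untreated ratio of 0.39 was 0.56 with at least 500 genes, 0.52 with at most 5% mitochondrial UMIs, 0.33 at resolution 1.5, 0.45 clustered without rapid-response genes, 0.54 with each library clustered alone, 0.51 without the low-UMI cluster, 0.25 over all kept cells, 0.28 with TMM scaling and 0.48 as a mean of per-cell CPM. The untreated-to-sedentary ratio of 0.34 was in turn 0.13 with 500 genes, 0.22 with 5% mitochondrial UMIs, 0.39 without high doublet scores, 0.45 at resolution 1.5, 0.18 with libraries clustered alone, 0.10 without the low-UMI cluster, 0.45 with TMM scaling and 0.21 thinned. The artery ratio of 0.33 was 0.44 as a mean of per-cell CPM. The vein ratio of 0.55 was 0.25 with 500 genes, 0.15 at resolution 1.5, 0.71 as a mean of per-cell CPM and -0.42 with libraries clustered alone.

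Of genes past 1.5-fold, with the share of all genes in brackets, the capillary 7 became 4 thinned (9.68%) and 4 at 2-fold (2.2%). The artery 1 became 2 without rapid-response genes in the clustering (11.4%), 2 thinned (13.2%), 4 by mean of per-cell CPM (11.7%), 5 at the lower fold tried (21.1%) and 0 at 2-fold (3.12%). The vein 5 became 3 with 500 genes (14.8%), 3 with 5% mitochondrial UMIs (13.0%), 2 at resolution 1.5 (16.5%), 0 with libraries clustered alone (16.8%), 3 thinned (15.7%), 3 at 100 UMIs (5.37%) and 2 at 2-fold (4.92%). The share difference of 14.1 points was 23.7 without thinning. The running capillary sum of 2612 CPM was 2391 with 500 genes, 2469 with 5% mitochondrial UMIs, 2455 without high doublet scores, 2321 at resolution 1.5, 2536 clustered without rapid-response genes, 2390.0 with libraries clustered alone, 2956 without the low-UMI cluster, 2447 over all kept cells and 2549 with TMM scaling.

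With libraries clustered alone, 7 of 9 vein running-to-sedentary ratios changed sign, to -0.43 for Egr1, -1.08 for Nr4a1, -1.06 for Nr4a2, -0.17 for Apold1, -4.03 for Arc, -0.18 for Egr2 and -0.20 for Sik1. Over all kept cells 7 ratios had the other sign than in capillary-like cells: Nr4a1 (-0.042) and Sik1 (-0.036) for running to untreated, and Nr4a1 (0.16), Apold1 (0.03), Trib1 (0.20), Egr2 (-0.14) and Egr3 (0.09) for untreated to sedentary. The cause was not tested. Depth limits Egr2, Egr3 and Arc most, and 1 library per group limits every comparison.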
